A study of Mus musculus with 3 samples.

Results

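Wide day 5 PATZ1 peaks are the regions of the day 5 list that are at least 150 bp wide and lie on chromosomes 1 to 19. They number 30068, or 3.75% of the 801169 day 5 peaks on these chromosomes. The other 771101 day 5 peaks, under 150 bp wide, are called narrow here. The members were chosen by their day 5 width alone. They were then set against the 312265 day 0 peaks on the same chromosomes to ask whether they lie in day 0 peaks more often than an even placement along the chromosome would give.

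PATZ1 is a transcription factor with a BTB/POZ domain, an AT hook and C2H2 zinc fingers, and it is known both to repress and to activate genes. 10T1/2 is a mouse embryonic mesenchymal cell line that can be driven to become adipocytes. In chromatin immunoprecipitation followed by sequencing (ChIP-seq), fragments bound by a factor are pulled down with an antibody, sequenced and piled up along the genome. A stretch where reads exceed the local background is listed as a peak, and it becomes wider than one extended read only where several reads overlap in a chain. A wide peak therefore holds reads from several fragments that lie side by side.

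The study asked where PATZ1 sits on chromatin before differentiation and during it. It has 1 PATZ1 library from 10T1/2 cells at day 0, 1 from 10T1/2 cells at day 5 of differentiation, and 1 input library of sonicated chromatin that the labels assign to both days. All 3 come from the same unmodified line, and the labels name no inducing agent. Depth, solved from the lists, was 8.55 reads per kb at day 0 and 8.07 at day 5, while the narrowest day 5 peak, taken as the length of an extended read, was 56 bp. With 1 library per day no test was made between days and no p-value is given. Intervals are 95% Wilson intervals for shares, cover counting error only, and treat peaks as independent. That of wide over narrow is a 95% normal interval on the log scale, from the counting errors of both shares. Positions are in mm9, and genes at them are not analysed here.

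The members were weak peaks. Their widths ran from 150 to 518 bp around a median of 171 bp, and the middle 90% spanned 151 to 246 bp. The median pile-up at the summit was 3 reads over a background of 0.718, and the authors' deposited fold had a median of 2.70. Most members rested on 3 reads (13189 peaks) or 4 reads (10326 peaks), 1943 on 2 reads and 208 on 7 or more. A q of at most 0.05 was met by 1 of the 30068 (0.00333%), beside 10 of all 801169 day 5 peaks on these chromosomes (0.00125%). Narrow peaks had a median pile-up of 3 reads over 0.622 and a median fold of 2.47. These values come from the same library as the width and are a description only. Peaks just inside and outside the limit were alike: the 1053 peaks of 150 bp had a median fold of 2.62, and the 1150 that were 1 bp narrower had 2.63.

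Wide day 5 peaks lay in day 0 peaks more often than even placement gave. Of the 30068, 4384 (14.6%, interval 14.2 to 14.98) shared at least 1 bp with a day 0 peak, against 9.3% of all day 5 peaks on these chromosomes. A wider peak touches more by its width alone, so each peak was compared with the share of positions at which a peak of its own width would touch a day 0 peak on its own chromosome. That level was 6.96%, or 2093 peaks, so the observed share was 2.09 times the level (2.04 to 2.15). Narrow peaks gave 9.09% against a level of 5.31%, a ratio of 1.71 (1.70 to 1.73). The ratio of wide peaks was thus 1.22 times that of narrow ones (1.19 to 1.26).

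Over all members, the ratio to even placement was higher in wider day 0 peaks, although the intervals of the upper 2 width classes overlap. In day 0 peaks under 400 bp lay 3012 wide peaks (10.0%, beside 6.48% of all day 5 peaks), which is 1.99 times the even level (1.92 to 2.05). From 400 to under 700 bp there were 1125 (3.74%, beside 2.32% of all), a ratio of 2.34 (2.21 to 2.48). Those of 700 bp or more held 259 (0.861%, beside 0.505% of all), where even placement gave 102.0, a ratio of 2.54 (2.25 to 2.87). Narrow peaks had ratios of 1.69, 1.78 and 1.77 in the same classes. From the narrowest day 0 class to the widest, the wide peaks drew away from the narrow ones, from 1.18 to 1.32 and 1.44 times. This order depended on the height of the day 5 peak. The 15132 wide peaks with 2 or 3 reads had 2.12 (2.02 to 2.22), 2.34 (2.15 to 2.54) and 2.21 (1.83 to 2.68) over the 3 classes, with no rise into the widest. Those with 4 reads had 1.95, 2.43 and 2.56 (2.09 to 3.13), and the 4610 with 5 reads or more had 1.65 (1.50 to 1.81), 2.16 (1.87 to 2.50) and 3.33 (2.60 to 4.26). Narrow peaks changed with height in the same direction. They had 1.76, 1.82 and 1.67 with 2 or 3 reads and 1.56, 1.68 and 1.82 with 4 reads. With 5 reads or more they had 1.39, 1.69 and 2.34. A few members touched more than 1 day 0 peak: 32 of the 4384 did.

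**Figure D1:**
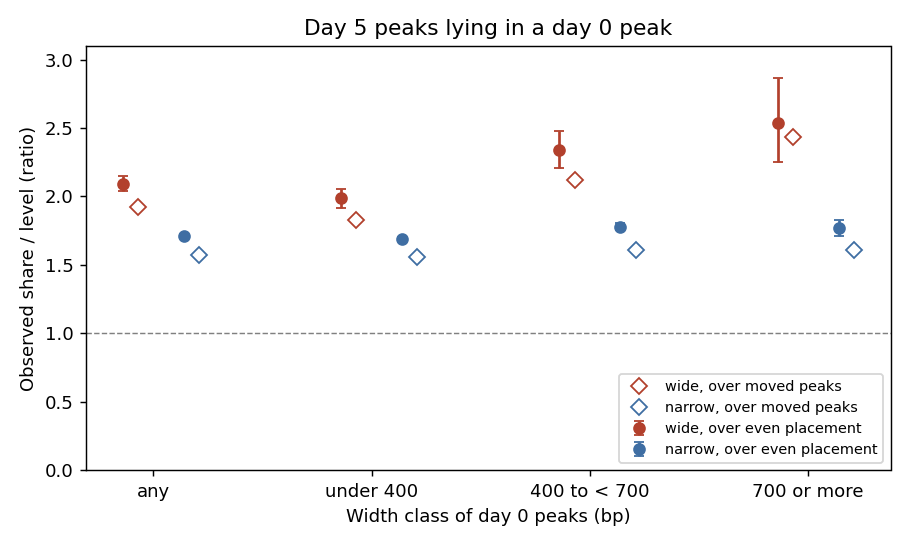
Ratio of the observed share of day 5 peaks in day 0 peaks to the even level (filled points, with 95% Wilson intervals) and to the share of the same peaks moved by 10000 and 20000 bp (open diamonds), by day 0 width class, for wide and narrow day 5 peaks. Wide peaks stand above narrow ones in each class, and their filled points rise from 1.99 to 2.54.

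Moving every peak by 10000 and 20000 bp to either side gives a level that keeps the local density of day 0 peaks. For wide peaks it was 7.58% over all day 0 peaks, above the 6.96% of even placement. Against the moved peaks the ratio was 1.92 over all day 0 peaks, 1.83 under 400 bp, 2.12 from 400 to under 700 bp and 2.43 at 700 bp or more. Narrow peaks gave 1.57, 1.56, 1.61 and 1.61. The order of the classes and the gap between wide and narrow peaks were as with even placement.

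Over all day 0 peaks, the ratio just below the 150 bp limit lay between those of the narrowest peaks and of the members. Day 5 peaks of exactly 56 bp had a ratio of 1.68, those of 57 to under 100 bp 1.69 and those of 100 to under 150 bp 1.85. Members of 150 to under 200 bp (23639 peaks) had 2.06 (2.00 to 2.13), those of 200 to under 250 bp (5098) 2.19 (2.06 to 2.33), those of 250 to under 300 bp (1050) 2.20 (1.92 to 2.50) and those of 300 bp or more (281) 2.22 (1.76 to 2.77). Among members the ratios rose slightly and their intervals overlap, and no test between these 4 groups was made. Within day 0 peaks of 700 bp or more, 193 members under 200 bp wide gave 2.47, 45 members of 200 to under 250 bp gave 2.40 (1.79 to 3.20) and 18 members of 250 to under 300 bp gave 4.56 (2.89 to 7.16). Only 3 of the widest members lay there, with an interval from 0.852 to 7.24.

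**Figure D2:**
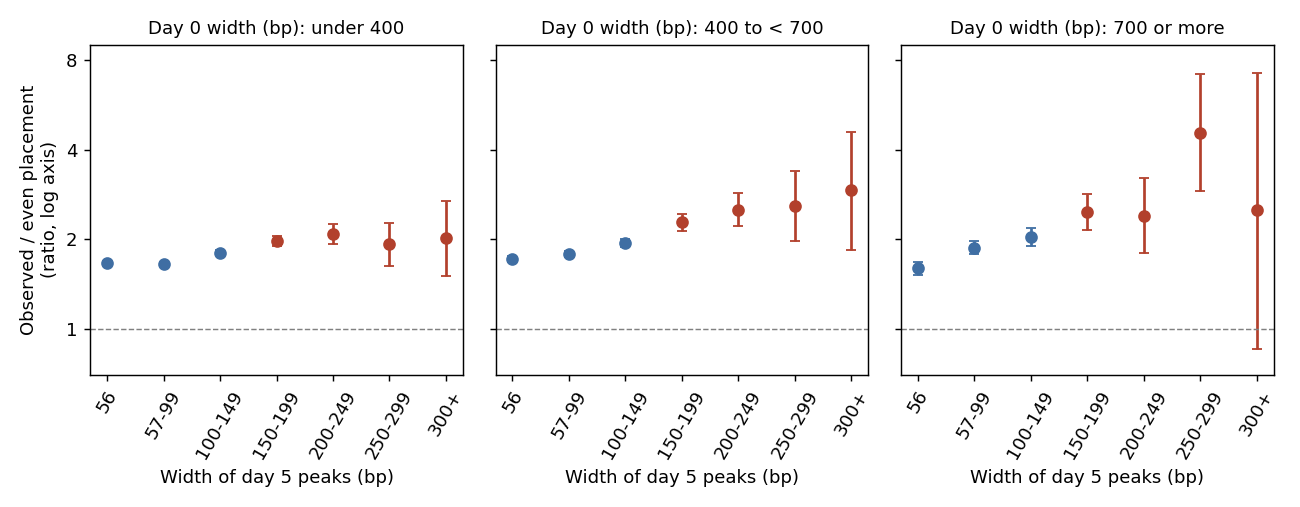
Ratio of the observed to the even share (log axis, 95% Wilson intervals) by the width of the day 5 peak, in 3 panels by day 0 width class; narrow peaks in blue, wide ones in red. In each panel the red points lie above the blue ones. They rise at each step in the middle panel only, from 2.28 to 2.92 with overlapping intervals. The widest groups have wide intervals, with 281 peaks at 300 bp or more.

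Day 5 height and background go with width, so wide and narrow peaks were also compared at equal values. At a pile-up of 3 reads, wide peaks had a ratio of 2.15 (2.06 to 2.24) and narrow ones 1.76. At 4 reads the ratios were 2.10 (2.00 to 2.20) and 1.60, and at 5 reads 1.86 (1.71 to 2.02) and 1.50. At 2 reads they were 2.30 (2.07 to 2.56) and 1.81. At 6 reads they were 1.78 (1.50 to 2.10) and 1.51 (1.42 to 1.61). At 7 reads or more, with 208 wide peaks, they were 2.27 (1.68 to 3.02) and 1.94 (1.75 to 2.16). The intervals of these last 2 groups overlap. Narrow peaks weighted to the pile-ups and backgrounds of the wide ones had a ratio of 1.68, so the wide ones stood 1.24 times above them. For day 0 peaks of 700 bp or more the weighted narrow ratio was 1.86, and the wide peaks stood 1.37 times above it.

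The ratios differed with the background of the day 5 peak. The lowest background of the day 5 list, 0.452 reads, was held by 4378 wide peaks (14.6%) and by 21.3% of narrow ones. At that background the ratio over all day 0 peaks was 2.15 for wide peaks (1.99 to 2.31) and 1.63 for narrow ones. Above it and up to 0.7 reads these were 2.32 (2.22 to 2.42) and 2.02. From there to 0.855 they were 2.07 (1.98 to 2.16) and 1.55, and above 0.855 they were 1.56 (1.43 to 1.70) and 1.22. Over moved peaks, wide peaks had 2.75, 2.04, 1.79 and 1.46 from the lowest background to the highest. Narrow peaks had 1.99, 1.73, 1.35 and 1.11, so the place of the lowest background in the order depends on the level. Of the 4378 at the lowest background, 11 (0.251%) lay in day 0 peaks of 700 bp or more, where even placement gave 0.259%, a ratio of 0.972 (0.543 to 1.74). The moved peaks had a share of 0.131% there, which gives 1.91 (1.07 to 3.42). Narrow peaks at that background had 1.19 (1.08 to 1.31) in this class, and 2.22 over moved peaks. Wide peaks thus did not stand above narrow ones there, on 11 wide peaks. At backgrounds above 0.855 the ratio in this class was 2.93 for wide and 1.99 for narrow peaks. The labels give the same input for both days, and the part that a common control has in the coincidence was not tested.

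Seen from day 0, the density of wide peaks was lowest in the narrowest day 0 peaks and highest in the widest, without a steady rise between. Wide day 5 summits numbered 28.3 per Mb of sequence covered by day 0 peaks under 300 bp (exact Poisson interval 26.7 to 29.9), against 12.5 per Mb over the whole span. The density was 33.8 from 400 to under 500 bp, 39.9 from 600 to under 700 bp (33.8 to 46.7), 34.9 from 700 to under 1000 bp (29.6 to 41.0) and 46.6 at 1000 bp or more (36.3 to 58.9). Narrow summits stayed between 561 and 622 per Mb over these classes, against 320 over the whole span. A wide day 5 peak was held by 254 of the 6562 day 0 peaks of 700 bp or more (3.87%, 3.43 to 4.37), beside 1.41% of all day 0 peaks. Another 2833 of them (43.2%, beside 20.6% of all) held narrow day 5 peaks only, and 3475 (53.0%, beside 78.0%) held none. A longer day 0 peak holds more by its length alone, and these shares are not scaled to length.

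Day 5 summits were densest near the day 0 summits. Within 200 bp of the summit of day 0 peaks of 700 bp or more, wide summits were 2.39 times as dense as 5 to 20 kb away (1.95 to 2.91), and narrow ones 1.52 times (1.44 to 1.60). From 200 to 500 bp the values were 1.97 (1.64 to 2.35) and 1.47, and from 500 to 1000 bp 1.42 (1.20 to 1.67) and 1.23. Between 1000 and 2000 bp wide summits were at 1.13 (0.989 to 1.28), an interval that holds the level far away. For day 0 peaks under 400 bp, the density of wide summits fell sooner, from 1.79 within 200 bp to 1.14 at 500 to 1000 bp. Of the 259 wide peaks in day 0 peaks of 700 bp or more, 50 (19.3%) had their summit within 100 bp of the day 0 summit. Their median distance was 273 bp. In day 0 peaks under 400 bp the share was 46.0% and the median 110 bp, and over all 4384 they were 40.7% and 122 bp. These distances go with the width of the day 0 peak and have no even level beside them, so they show no gathering at the summit by themselves.

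**Figure D3:**
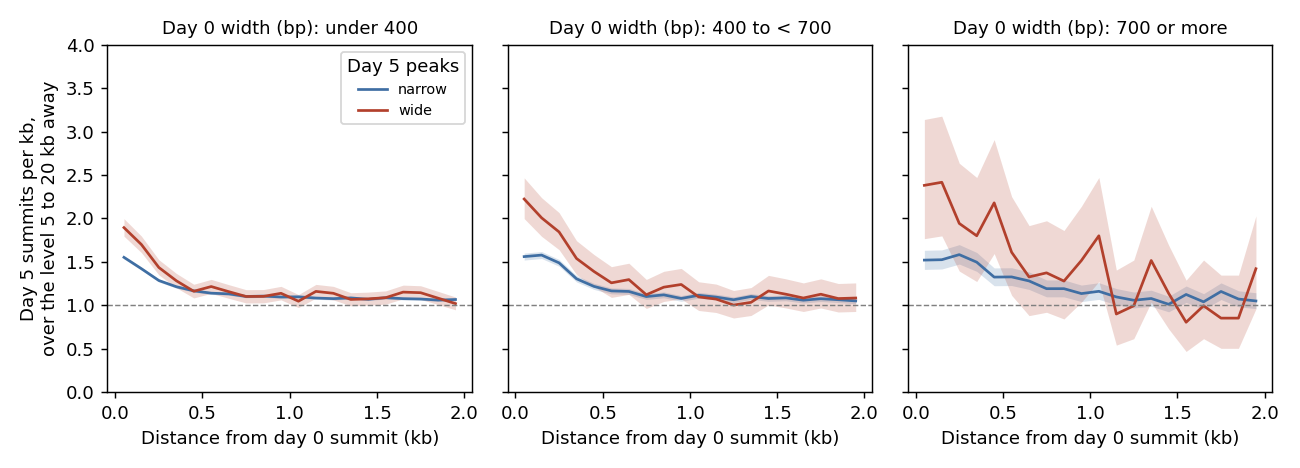
Density of day 5 summits by distance from the day 0 summit, in bins of 100 bp, over the density 5 to 20 kb away, for wide (red) and narrow (blue) day 5 peaks; bands are 95% Poisson intervals. The red line starts above the blue one in each panel and both near 1 within 2 kb, with few summits per bin in the right panel.

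Wide and narrow day 5 peaks were also far apart in the day 0 peaks of highest significance. In the 305741 day 0 peaks with a q above 0.05, the ratio of wide peaks to even placement was 2.08, and in the 6524 with a q of at most 0.05 it was 2.46 (2.11 to 2.86, 166 wide peaks, 0.552% of them, beside 0.316% of all day 5 peaks). In the 801 with −log10 q of at least 5 lay 41 wide peaks (0.136%, beside 0.0461% of all), where even placement gave 10.5, a ratio of 3.91 (2.88 to 5.30). At −log10 q of at least 10 there were 28 wide peaks (0.0931%, beside 0.0238% of all) and a ratio of 5.43 (3.76 to 7.85). At 20 or more there were 19 (0.0632%, beside 0.0102% of all) against 2.24, a ratio of 8.48 (5.43 to 13.3). Narrow peaks of all heights together showed no such rise, with 1.71, 1.73, 1.48, 1.50 and 1.36 in the same order. Narrow peaks with 5 reads or more were also enriched, with 3.34, 6.11, 7.15 and 5.36 in the last 4 groups. Wide peaks of that height had 4.47, 11.1, 15.9 and 23.8. Over moved peaks the ratios of wide peaks of all heights were 1.92, 2.11, 3.42, 4.67 and 6.33. For sets of similar size, the 6524 peaks with a q of at most 0.05 and the 6562 of 700 bp or more, the gap was alike, with 2.46 against 1.73 and 2.54 against 1.77. The larger gaps rest on 41, 28 and 19 wide peaks. Chromosome 13 holds 8 of the 41, all of them among the 19. Without it the ratio was 3.38 (2.41 to 4.75) at 5, 4.16 (2.69 to 6.42) at 10 and 5.52 (3.08 to 9.88) at 20. Leaving out any other chromosome left the last value between 7.45 and 10.7.

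**Figure D4:**
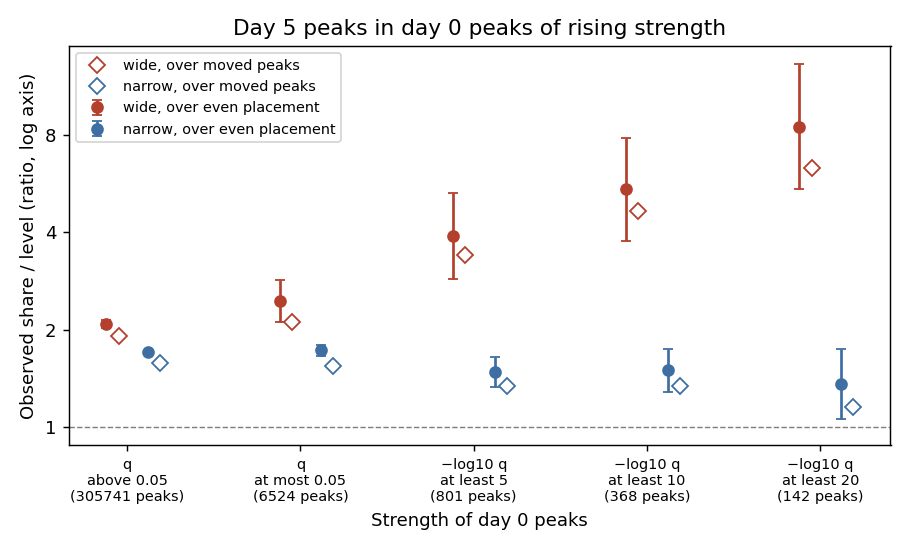
Ratio of the observed share of day 5 peaks in day 0 peaks to the even level (filled, 95% Wilson intervals) and to moved peaks (open), on a log axis, by the strength of the day 0 peak; the last 4 groups are nested. Wide peaks climb from 2.08 to 8.48, while narrow peaks stay between 1.36 and 1.73.

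These 41 wide peaks lay in 39 distinct day 0 peaks on 13 chromosomes, so 4.87% of the 801 strong day 0 peaks held one (3.58 to 6.59). Of the 142 strongest, 17 did (11.97%, 7.61 to 18.3). The share was 1.41% over all day 0 peaks and 3.87% over those of 700 bp or more. None of these shares is scaled to day 0 length. Among day 0 peaks of 700 bp or more, those with a wide day 5 peak included 27 with −log10 q of at least 5 (10.6%, 7.41 to 15.02), against 5.08% of those with narrow day 5 peaks only and 5.53% of those with none. The median day 0 pile-up was 10 reads in all 3 sets, their median widths were 844, 834 and 802 bp, and the median day 0 folds were 2.72, 2.73 and 2.70. The sets thus differed in the share of strong peaks while their median heights were close.

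At the strong day 0 sites the ratio differed with the height of the day 5 peak. Of 15132 wide peaks with 2 or 3 reads, 4 lay in a day 0 peak with −log10 q of at least 5. The ratio was 0.819 (0.319 to 2.11), beside 0.765 (0.637 to 0.919) for narrow peaks, so no gap was seen at this height. With 4 reads there were 16, a ratio of 4.30 (2.65 to 6.98) beside 1.66 for narrow peaks. With 5 reads or more there were 21 of 4610, a ratio of 11.1 (7.27 to 17.0) beside 6.11 (5.14 to 7.26) for narrow peaks. Over moved peaks these last values were 6.46 and 2.80. Of the 41, 20 had a background above 0.855 reads, which 12.5% of all wide peaks had, and the ratio differed with it. Wide peaks had 1.64 (0.451 to 5.99) at the lowest background and 1.78 (0.818 to 3.89) up to 0.7. They had 3.08 (1.80 to 5.27) up to 0.855 and 11.7 (7.60 to 18.1) above 0.855. Over moved peaks these were 8.0, from 2 wide peaks, then 1.85, 2.89 and 5.0, so the order depends on the level. Narrow peaks had 0.255, 0.706, 1.10 (0.875 to 1.38) and 5.88 (5.09 to 6.79). Over moved peaks the narrow ratios were 0.741, 0.738, 0.931 and 2.56. Against even placement, the 3.91 over all wide peaks thus spans values from near that level to far above it.

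The day 5 signal in these peaks was low beside that of day 0. The 41 held 2 to 9 reads at day 5 with a median of 5, none had a q of at most 0.05, and their highest −log10 q was 0.263. The day 0 peaks they lay in held a median of 41 reads. Scaled by 0.232 to the shorter extension and the depth of day 5, as if pile-ups were proportional to both, the median was 9.5 reads. The scaled value was reached by 2 of the 41 and 50% of it by 19. For the 259 wide peaks in day 0 peaks of 700 bp or more, the day 5 median was 4 reads and the highest 8. Their scaled day 0 median was 2.32, from mostly low day 0 peaks with a median of 10 reads. Of the 259, 204 (78.8%) reached their own scaled value. Over all 4384 wide peaks in a day 0 peak, 96.8% did, at a scaled median of 1.85. No wide peak held fewer than 2 reads, so low scaled values are reached by being listed, and these shares do not measure signal kept from day 0.

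The first region by the naming rule held 3 wide day 5 peaks. The day 0 peak at chr13:63801535-63802964, 1430 bp wide with 219 reads, overlapped day 5 peaks at chr13:63801375-63801563 (189 bp, 4 reads), chr13:63802218-63802378 (161 bp, 3 reads) and chr13:63802797-63803010 (214 bp, 4 reads). The middle one had its summit 78 bp from the day 0 summit, and the outer ones lay at 790 and 655 bp, at the edges of the day 0 peak. The scaled day 0 pile-up was 50.8 reads, far above all 3.

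Other strong day 0 regions had 1 wide day 5 peak near their summit. The peak at chr13:21418866-21419057 held 7 reads over a background of 1.15, 49 bp from the summit of a day 0 peak with 245 reads. The peak at chr16:14885122-14885304 held 5 reads over 0.855, and its summit was 2 bp from that of a day 0 peak with 164 reads. The peak at chr6:29276711-29276895 held 4 reads, 173 bp from a day 0 summit with 113 reads. In this group the day 5 peaks, at 4 to 7 reads, spanned a far smaller range than the day 0 peaks.

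Lower day 0 regions completed the rule. The peak at chr8:30844448-30844622 held 6 reads over 1.71, 16 bp from a day 0 summit with 52 reads. The peak at chr15:85405635-85405812 held 4 reads, 602 bp from the summit of a day 0 peak 2644 bp wide with 51 reads. Among strong day 0 peaks narrower than 700 bp, 3 members were singled out after their values were seen. The member with the most reads, at chr11:114933492-114933736, held 9 reads, 62 bp from a day 0 summit with a scaled pile-up of 22.0. One at chr13:36804788-36804951 held 4 reads, 3 bp from the day 0 summit, and one at chr2:24790626-24790820 held 6 reads, 9 bp from it.

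Of the 6 widest members, 2 lay in a day 0 peak, beside 14.6% of all members and 20.6% of the 281 of 300 bp or more. The widest, at chr1:140976370-140976887, was 518 bp wide with 5 reads at its summit and no day 0 peak. Those at chr19:38469627-38470086 (460 bp), at chr2:30135325-30135782 (458 bp) and at chr5:76697286-76697731 (446 bp) had none either. The peak at chr19:6418723-6419185, 463 bp wide with 5 reads, lay in a day 0 peak of 1089 bp with 18 reads and −log10 q of 5.63. The peak at chr10:62236833-62237266, 434 bp wide, lay in a day 0 peak with 8 reads and a −log10 q of 0.0548.

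Of the 6 members with the highest day 5 −log10 p, 1 lay in a day 0 peak, beside 14.6% of all members. The highest, at chr1:88688450-88688601, held 8 reads over 0.452 with a −log10 p of 8.84 and a −log10 q of 1.55, and is the member with a q of at most 0.05. A peak at chr10:113229804-113229995 held 8 reads over 0.603, and those at chr1:68931712-68931939, at chr2:100764180-100764330 and at chr9:25761367-25761543 held 7 reads each. None of these had a day 0 peak, nor had the next such peak, at chr14:25703157-25703344 with 7 reads. The member that lay in a day 0 peak was at chr17:80371709-80371897. It held 8 reads, and its summit lay 90 bp from that of a day 0 peak with 9 reads. Members in and outside day 0 peaks had the same median pile-up of 3 reads and backgrounds of 0.694 and 0.718.

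Members were spread over all 19 chromosomes at unequal density. They numbered 24.2 per Mb on chromosome 15, 22.4 on chromosome 10 and 15.9 on chromosome 19, against 2.72 on chromosome 7 and 7.74 on chromosome 12. On chromosome 15 they made up 5.52% of day 5 peaks and on chromosome 7 1.75%. The median 1-Mb window held 12 of them. Windows at chr10:104000001-105000000 and at chr15:20000001-21000000 held the most, 45 each, of which 2 and 10 lay in a day 0 peak. Over the whole of chromosomes 10 and 15, 6.41% and 26.8% of wide peaks did, and the counts are not far from these shares. Neighbours were about as far from wide as from narrow peaks: the median distance to the next day 5 summit was 886 bp for wide and 905 bp for narrow peaks.

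The coincidence with day 0 was present on each chromosome. The ratio of wide peaks to even placement was highest on chromosome 10 (2.64, 2.30 to 3.04) and lowest on chromosome 19 (1.83, 1.56 to 2.13). It exceeded the narrow ratio on 19 of 19 chromosomes, and on 17 the narrow ratio lay below the interval of the wide one. Against moved peaks the wide ratio was the higher on 18 of 19, and chromosome 7 was the exception with 1.36 and 1.43. In day 0 peaks of 700 bp or more, the wide ratio was the higher on 12 of 19 chromosomes, many with under 10 such members. Chromosome 15 held 65 of these 259, chromosome 13 38, chromosome 3 36, chromosome 4 31 and chromosome 8 22. Their ratios were 2.13, 2.77, 2.35, 3.56 and 3.84, each above the narrow ratio there.

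**Figure D5:**
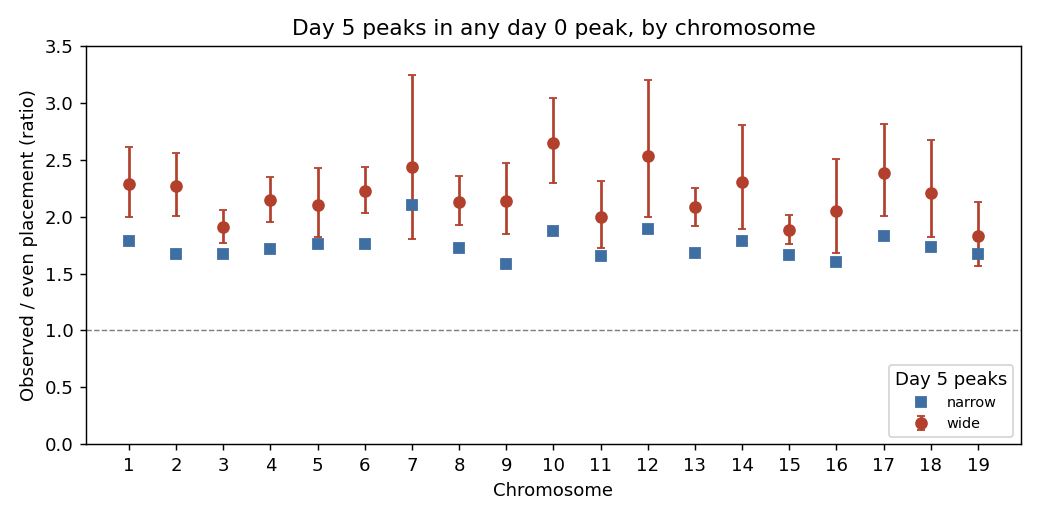
Ratio of the observed to the even share of day 5 peaks in any day 0 peak on chromosomes 1 to 19, for wide (red, 95% Wilson intervals) and narrow (blue) peaks. Red points lie between 1.83 and 2.64, each above the blue point of its chromosome.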

How the data were processed

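The authors deposited a peak list and a summit list per day. Per the submitters' processing notes, the tools were HOMER and Bowtie2 and the builds mm9, GRCm38 and mm10. In the sources used here, neither their roles nor the peak caller are given. Of 20 chromosomes, 9 had a peak past the mm10 end and 0 past the mm9 end, so positions are mm9. The deposited score is 10 times −log10 p, rounded down, and was not analysed. The deposited fold is the summit's ratio of pile-up plus 1 to background plus 1, and −log10 p and −log10 q are the authors' deposited values. Pile-up and background were solved from fold and −log10 p by a Poisson tail, within a relative tolerance of 0.0001, for all but 1 of 315100 day 0 and all 852421 day 5 peaks.

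The even level was computed in closed form, per peak width and chromosome, between the first and last peak of either list; assembly gaps stayed in. Overlap means at least 1 bp, and its count differed by 0 from that of bedtools 2.31.1. The scripts were tested on simulated data. Named regions were the 8 members in the strongest day 0 peaks of 700 bp or more, the 6 widest, the 6 highest in −log10 p and the 6 highest without a day 0 peak. Members, limits and comparisons were chosen with earlier results of these data known, and the split by day 0 strength after seeing the present ones. No table or genome of mm9 was used, so genes and sequences are not analysed here. Python 3.11.15, numpy 2.4.6, pandas 2.3.3 and scipy 1.17.1 were used.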

Additional observations from a re-analysis of the deposited data

Results flagged for a closer look

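Data outside the comparisons also hold wide day 5 peaks. Chromosome X has 2202 of them, of which 52 (2.36%) lay in a day 0 peak against an even level of 0.813%, a ratio of 2.90 (2.22 to 3.79). Its narrow peaks had 2.53 (2.36 to 2.71), and these intervals overlap. Chromosome Y has 5 wide day 5 peaks and 0 day 0 peaks, and chromosome M has 0 wide ones.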

How the results depend on the processing

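Over 52 alternatives to 6 ratios, the ratio stayed above 1 in 51. It moved beyond the interval of the reported value in 25, and 26 stayed inside it. With the day 5 summit required in the day 0 peak, the ratio was 2.28 over all day 0 peaks, 2.16 under 400 bp and 2.54 at 400 to under 700 bp, and wide over narrow was 1.31. With at least 50% of the day 5 peak inside, these were 2.33, 2.22, 2.54 and 1.33. With wide taken from 120 bp they were 1.97, 1.89, 2.14 and 1.16, and 2.65 for day 0 peaks whose −log10 q was at least 5. From 200 bp they were 2.19 over all, 2.55 at 400 to under 700 bp and 1.27 for wide over narrow. Peaks moved by 10000 and 20000 bp gave 1.92, 1.83 and 2.12. Leaving out 475 stretches of 50 kb or more without a peak gave 2.03 over all day 0 peaks, and day 0 peaks with a q of at most 0.05 gave 2.46. At the lowest background alone, the ratio was 2.18 under 400 bp, 1.64 at −log10 q of at least 5 (2 peaks) and 1.31 for wide over narrow. In day 0 peaks of 700 bp or more it turned to 0.972 there, and to 1.91 over moved peaks; the cause was not tested. The alternatives for −log10 q, and those without single chromosomes other than 15 or with both the lowest background and moved peaks, were chosen after seeing the data. No paired analysis was possible because each day has 1 library. With a median summit of 3 reads, single members are not told from chance pile-ups at this depth.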
